A study of Mus musculus with 2 samples.

Results

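The 9 transcripts described here, mt-Co1, mt-Co2, mt-Co3, mt-Atp6, mt-Cytb, mt-Nd1, mt-Nd2, mt-Nd4 and mt-Nd5, are messenger RNAs made from mitochondrial DNA. They were taken by name from the gene lists of both libraries, 9 of 13 mitochondrially encoded genes listed and 9 of 30052 gene symbols in all. The choice used no measured value, but it was made with earlier results of these data known. Poly(A) RNA of single cells from dissociated testis of adult mice was measured in droplets, in 1 library of Nsun7 KO testis and 1 library of WT testis. Nsun7 codes for a member of the NSUN group of RNA methyltransferases, which the title of the study calls catalytically inactive. The labels give no strain, exact age or number of animals, and no detail of the knockout allele.

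The mouse mitochondrial genome is a small circle that codes for subunits of the respiratory chain and of ATP synthase, and for the ribosomal and transfer RNAs needed to translate them. Most of its messages come from one long transcript of the heavy strand, which is cut at the transfer RNAs and then given short poly(A) tails, so differences in their levels are thought to arise largely after transcription. All other subunits of the same complexes are coded in the nucleus. In the testis, spermatogonia, spermatocytes and spermatids differ in the number and shape of their mitochondria. Late spermatids wrap part of their mitochondria around the sperm midpiece and shed much of their cytoplasm.

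Many mitochondrial messages have little or no sequence between the stop codon and the poly(A) tail, so a poly(A)-primed method starts close to the end of the coding sequence. The last 30 bases of 6 members are shown to give that end, in the strand of the message, 5′ to 3′, from the GENCODE M21 transcripts of GRCm38. Capitals mark the bases of the last codon.
mt-Co1: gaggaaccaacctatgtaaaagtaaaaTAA
mt-Nd1: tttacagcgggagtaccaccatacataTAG
mt-Atp6: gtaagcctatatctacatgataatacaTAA
mt-Co3: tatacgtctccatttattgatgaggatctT
mt-Cytb: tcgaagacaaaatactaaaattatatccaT
mt-Nd4: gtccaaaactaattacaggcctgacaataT
They lie on the plus strand at chrM:6843-6872, chrM:3678-3707, chrM:8578-8607, chrM:9361-9390, chrM:15259-15288 and chrM:11515-11544, in the order printed. For mt-Co3, mt-Cytb and mt-Nd4 the annotated gene stops 1 base into the last codon, and the poly(A) tail is known to supply the rest of the stop codon. The other 6 members carry a complete stop codon.

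Copies of mitochondrial DNA in the nuclear genome and overlapping mitochondrial genes limit what a count of a single member means. Of the 50-base windows of mt-Co2, mt-Co3 and mt-Atp6, 100%, 99.9% and 99.5% also occur in annotated nuclear transcripts. The figure was 62.2% for mt-Nd4, 51.1% for mt-Co1, 8.19% for mt-Nd2, 7.61% for mt-Nd5, and 0% for mt-Cytb and mt-Nd1. Together 14 nuclear pseudogenes share such windows with mitochondrial messages. A block of 7 of them lies on chromosome 1 of GRCm38, between Gm28439 at 24611535 to 24612410 and Gm29216 at 24615706 to 24616197. None of the 14 is in the deposited gene lists, and how reads with both origins were counted is not given in the sources used here. mt-Atp6 overlaps mt-Atp8 (7927 to 8607 and 7766 to 7969 on chromosome M), and mt-Nd4 overlaps mt-Nd4l (10167 to 11544 and 9877 to 10173), each pair on one message.

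The Nsun7 KO library held 16835 barcodes with 210531446 counts, and the WT library 16376 barcodes with 220247156 counts, with medians of 9818 counts per barcode in KO and 8017 in WT. Nsun7 stood at 39.7 counts per 1000000 counts (CPM) in KO and 170.0 CPM in WT over all barcodes, so fewer but still some Nsun7 counts were found in KO. Barcode names occur in both libraries 2168 times, but they are running numbers and cannot show shared cells. The 9 members made up 98.5% of mitochondrial counts in KO and 98.1% in WT, and mitochondrial counts were 2.92% of all counts in KO and 2.83% in WT. No barcode was left out for a high mitochondrial share, and 17.6% of KO barcodes and 7.55% of WT barcodes had over 20% mitochondrial counts. Barcodes were grouped into 23 clusters on nuclear genes only, so no mitochondrial count entered the grouping. Clusters were named from marker genes, and each class name below stands for cells like that type. In all 9 classes with at least 50 barcodes per library, every marker on the class's own list had a count in both libraries. That is a weak check, since all Sertoli markers also had counts in elongating spermatids. Fewer markers passed the stricter measure used for naming, from 8 of 13 in cluster 10 (elongating spermatids) to 10 of 10 in cluster 13 (Sertoli). With 1 library per genotype, no test between genotypes was possible, genotype and library cannot be told apart, and the 95% intervals given here take in the error of counting and nothing else.

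Over the 5 named germ cell classes the sum of the 9 transcripts was lower in each later class, in both libraries. Spermatogonia, the dividing stem and precursor cells, gave 14.7% of their counts to the 9 members in KO and 10.5% in WT. Early spermatocytes, in the first part of meiotic prophase, gave 9.56% in KO and 9.23% in WT. The step to late spermatocytes was the steepest, with 2.07% in KO and 1.95% in WT, a drop of 4.61-fold in KO and 4.75-fold in WT. Round spermatids, the haploid cells after meiosis, held 0.859% in KO and 0.865% in WT, lower than late spermatocytes by 2.42-fold in KO and 2.25-fold in WT. Elongating spermatids, which compact their chromatin with protamines, held 0.548% in KO and 0.626% in WT. An unnamed cluster of 909 KO and 540 WT barcodes scored as round spermatids but had the transition protein gene Tnp1 at 46772 CPM. It held 0.340% in KO and 0.367% in WT, below both the round and the elongating spermatid class.

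**Figure D1:**
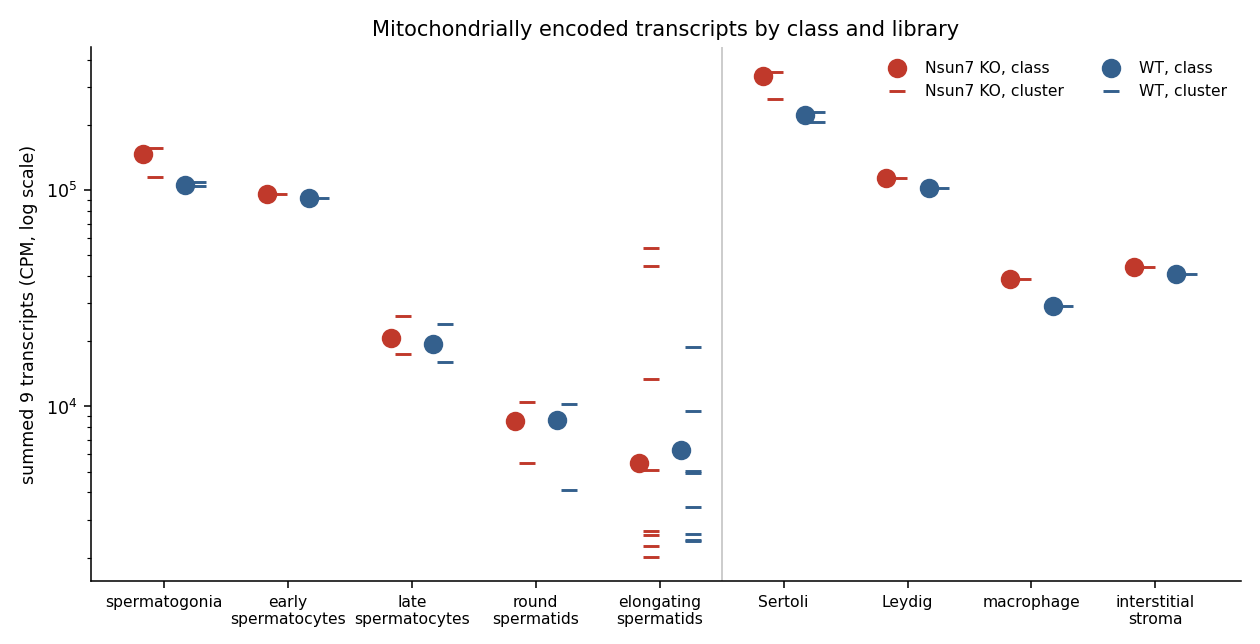
Summed level of the 9 transcripts (CPM, log scale) in 9 classes, Nsun7 KO left of WT. Circles are whole classes and dashes are single clusters with at least 50 barcodes in that library. Levels run from 337900 CPM (KO) and 222533 CPM (WT) in Sertoli cells to 5476 CPM (KO) and 6256 CPM (WT) in elongating spermatids, where clusters are widely spread.

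The order of the 9 classes was the same in both libraries. Sertoli cells, the supporting cells of the tubules, ranked first with 33.8% in KO and 22.3% in WT. Spermatogonia, Leydig cells (11.4% in KO and 10.3% in WT) and early spermatocytes followed. Leydig cells, which make testosterone, start steroid synthesis inside their mitochondria. Interstitial stroma (4.40% in KO and 4.12% in WT) and macrophages (3.88% in KO and 2.90% in WT) lay between early and late spermatocytes. Neighbours near the top were close: in WT, spermatogonia, Leydig cells and early spermatocytes spanned 9.23% to 10.5%. Early spermatocytes stood above spermatogonia in WT when clusters were cut more finely (117342 CPM against 106087 CPM). They also did so when classes were drawn from barcodes of at most 20% mitochondrial counts (107295 CPM against 105381 CPM). The fall through late spermatocytes, round spermatids and elongating spermatids held in both libraries under each of the 7 other ways of filtering barcodes or drawing classes that gave levels.

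The median barcode was also lower in each later named class from early spermatocytes on. In elongating spermatids the median share of the 9 members was 0.144% in KO and 0.228% in WT, from a median of 24 member counts per barcode in KO and 27 in WT. In round spermatids it was 0.564% in KO and 0.617% in WT, and in late spermatocytes 1.18% in KO and 1.52% in WT. In early spermatocytes it was 10.96% in KO and 10.3% in WT. In spermatogonia the median was 13.5% in KO (interquartile range 10.2% to 21.7%) and 9.74% in WT (7.92% to 12.5%), so in WT the median spermatogonium lay below the median early spermatocyte. Few barcodes had no count of any member: 9 of 8292 KO and 1 of 4836 WT elongating spermatids, and 6 of 1524 KO and 6 of 2994 WT round spermatids.

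The cytochrome c oxidase members are subunits of complex IV. mt-Co1, the catalytic subunit, had 38627 CPM in KO and 27819 CPM in WT spermatogonia. In late spermatocytes it had 6408 CPM in KO and 6147 CPM in WT. In elongating spermatids it had 1724 CPM in KO and 2066 CPM in WT. mt-Co2, which takes electrons from cytochrome c, fell least at the meiotic step, by 3.67-fold in KO and 3.83-fold in WT between early and late spermatocytes. In late spermatocytes it stood at 3476 CPM in KO and 3055 CPM in WT. mt-Co3, a structural core subunit, had 1209 CPM in KO and 1175 CPM in WT round spermatids. All 3 oxidase messages were lower at each step from spermatogonia to elongating spermatids in both libraries.

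mt-Cytb, the one subunit of complex III coded in mitochondria, fell most between early and late spermatocytes, by 7.02-fold in KO and 7.68-fold in WT. It had 6991 CPM in KO and 7290 CPM in WT early spermatocytes, and 996.6 CPM in KO and 948.7 CPM in WT late spermatocytes. Its share of the 9-member sum was lowest in late spermatocytes in KO (4.81%) and in round spermatids in WT (4.74%). It was highest in interstitial stroma, at 8.29% in KO and 8.46% in WT.

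mt-Atp6, a subunit of the proton channel of ATP synthase, was the most abundant member per length in round spermatids. It had 2069 CPM per kb in KO and 2331 CPM per kb in WT. Its share was highest in spermatogonia, at 19.8% in KO and 21.2% in WT, and lowest in Leydig cells, at 12.9% in KO and 13.6% in WT. Among germ cells it was lowest in elongating spermatids, at 14.2% in KO and 15.2% in WT.

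The complex I members, which belong to the part of the complex embedded in the membrane, differed among themselves in level per length. mt-Nd1 had 641 CPM per kb in KO and 611 CPM per kb in WT round spermatids, and mt-Nd4 had 427 CPM per kb in KO and 394 CPM per kb in WT. mt-Nd2 had 194.0 CPM per kb in KO and 189 CPM per kb in WT. mt-Nd5 was lowest of the 9, at 74.0 CPM per kb in KO and 66.3 CPM per kb in WT. Over all clusters of the elongating class, mt-Nd1, mt-Nd2 and mt-Nd5 changed little between round and elongating spermatids in WT. mt-Nd1 had 529 CPM in KO and 616 CPM in WT elongating spermatids, beside 614 CPM in KO and 585 CPM in WT round spermatids, so in WT it was the one member higher in the later stage. mt-Nd2 stood at 164 CPM in KO and 195.6 CPM in WT elongating spermatids, beside 201 CPM in KO and 195.7 CPM in WT round spermatids. mt-Nd4, in contrast, was 1.77-fold (KO) and 1.65-fold (WT) lower in elongating than in round spermatids. The small changes in WT rested on clusters 0 and 11, which held 60.8% of the elongating class's WT member counts. Without these clusters, WT elongating spermatids held 366 CPM of mt-Nd1 and 123 CPM of mt-Nd2, below round spermatids. For mt-Nd5 the value was 72.1 CPM, beside 121 CPM in WT round spermatids.

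At the first step, from spermatogonia to early spermatocytes, all 9 members were lower in KO, by 1.15-fold to 1.70-fold. In WT the same step was smaller, and 3 members were not lower: mt-Nd5 had 1620 CPM in early spermatocytes and 1375 CPM in spermatogonia, mt-Nd4 had 6430 CPM in early spermatocytes and 6305 CPM in spermatogonia, and mt-Cytb had 7290 CPM in early spermatocytes and 7232 CPM in spermatogonia. In KO, mt-Nd5 had 1619 CPM in early spermatocytes and 1853 CPM in spermatogonia.

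**Figure D2:**
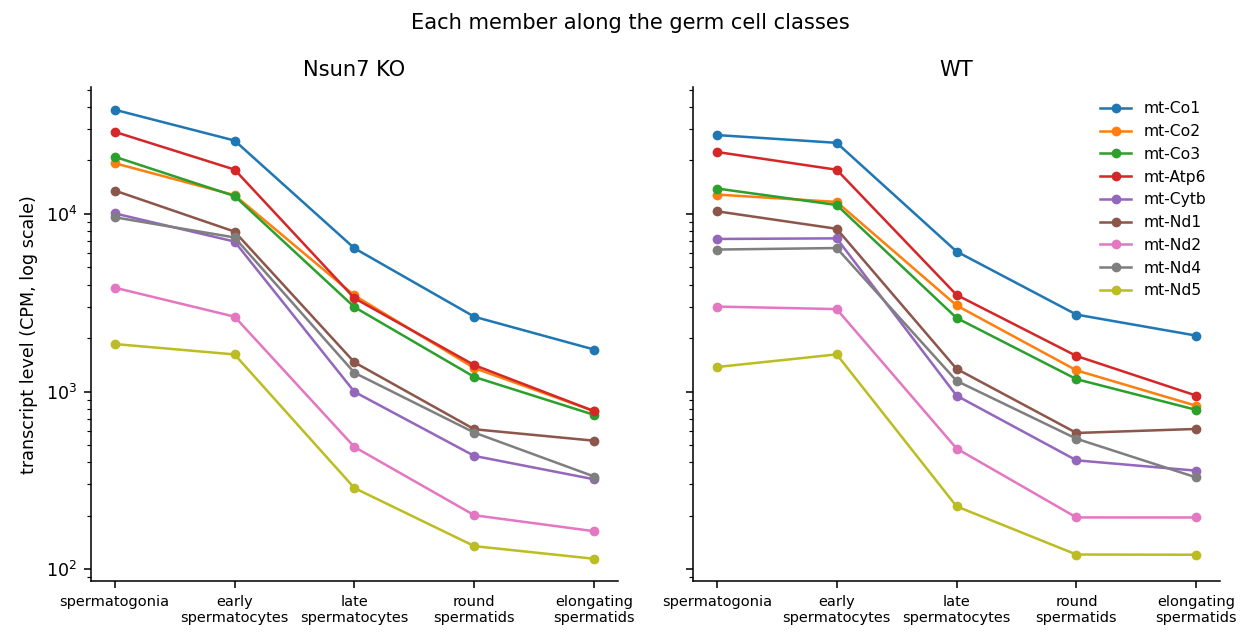
Level of each of the 9 transcripts (CPM, log scale) along 5 germ cell classes, Nsun7 KO in the left panel and WT in the right. Most lines run down together, with the steepest step between early and late spermatocytes (3.67-fold to 7.02-fold in KO, 3.83-fold to 7.68-fold in WT).

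Classes differed in the make-up of the sum as well as in its size. Measured as the percentage points of the 9-member sum that would have to move to turn one class into another, round spermatids lay 1.47 points from late spermatocytes in KO and 1.19 points in WT. Elongating spermatids lay 5.22 points from round spermatids in KO and 7.12 points in WT. The class nearest to elongating spermatids in make-up was the Sertoli class, 0.979 points away in KO and 1.5 points away in WT. mt-Nd1 carried part of that: its share was 9.66% in KO and 9.85% in WT elongating spermatids, 9.995% in KO and 10.7% in WT Sertoli cells, but 7.15% in KO and 6.76% in WT round spermatids. Without clusters 0 and 11, which held most of the class's mitochondrial counts, elongating spermatids lay 2.37 points (KO) and 2.05 points (WT) from Sertoli cells. In KO they then lay nearer to macrophages, at 1.87 points. The 10 Sertoli markers summed to 233 CPM in KO and 395 CPM in WT elongating spermatids, with none at 0, against 13540 CPM in KO and 18985 CPM in WT Sertoli cells. How much of the mitochondrial counts of elongating spermatids came from free RNA was not tested.

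**Figure D3:**
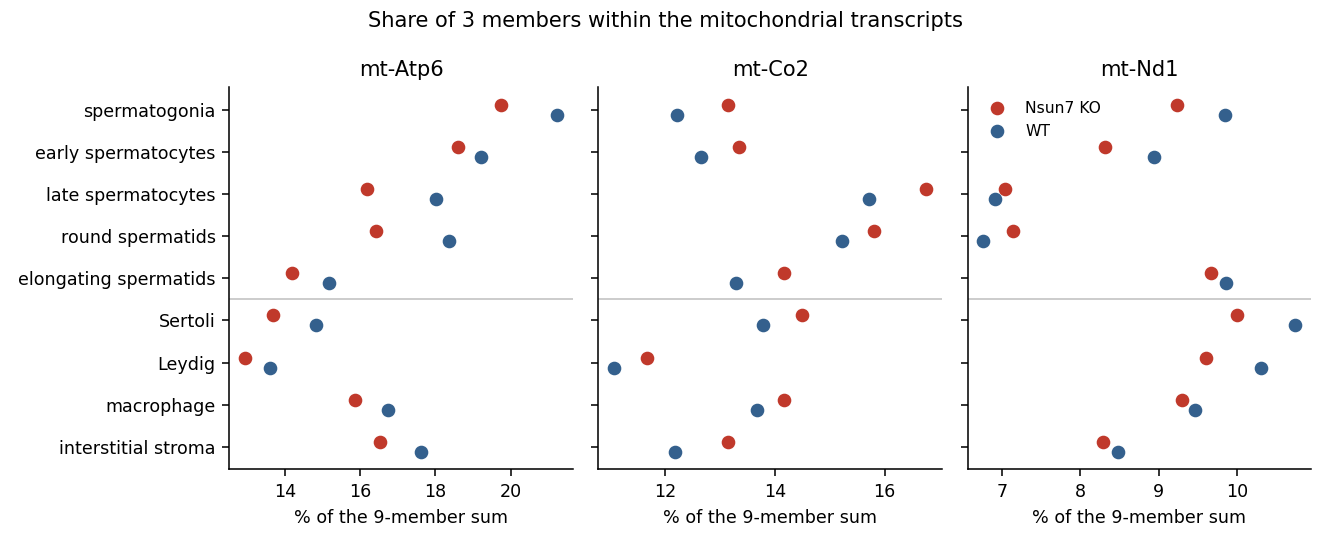
Share of the 9-member sum (%) taken by mt-Atp6, mt-Co2 and mt-Nd1 in 9 classes, Nsun7 KO above WT in each row. mt-Nd1 is between 6.76% and 7.15% in late spermatocytes and round spermatids and between 8.28% and 10.7% elsewhere, and mt-Atp6 is lower and mt-Co2 higher in KO in all 9 classes.

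The make-up also differed between the libraries, for 3 members in the same direction in every class. mt-Atp6 took a lower share in KO than in WT in 9 of 9 classes, by between 0.627 and 1.95 percentage points. In round spermatids it was 16.4% in KO and 18.4% in WT. mt-Co2 and mt-Co3 took higher shares in KO in 9 of 9 classes, by 0.492 to 1.06 points for mt-Co2 and by 0.496 to 1.08 points for mt-Co3. With the libraries clustered separately, mt-Co2 was higher in KO in 5 of 7 classes. mt-Nd4 was higher in KO in 8 of 9 classes, macrophages being the exception, and mt-Nd2 was lower in KO in 8 of 9, round spermatids being the exception. mt-Co1, mt-Cytb, mt-Nd1 and mt-Nd5 moved in both directions over the classes.

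Set against the same sum, 2 mitochondrial messages outside the 9 also differed in one direction in every class. mt-Atp8, which shares its message with mt-Atp6, reached 0.365% to 0.597% in KO and 0.594% to 0.901% in WT, lower in KO in 9 of 9 classes, at 0.592 to 0.722 of the WT share. mt-Nd3, a complex I subunit gene between mt-Co3 and mt-Nd4l, was lower in KO in 9 of 9 classes, at 0.7995 to 0.901 of the WT share. Over 22 single clusters with at least 20 barcodes per library, mt-Co2 and mt-Co3 were higher and mt-Atp8 lower in KO in all 22. mt-Atp6 was lower in KO in 21 of the 22 clusters and mt-Nd3 in 19 of them. These shares do not depend on the total mitochondrial level of a class. They differ between whole libraries, so genotype and library preparation cannot be told apart in them. Nuclear transcripts share 98.0% to 100% of the windows of mt-Co2, mt-Co3, mt-Atp6 and mt-Nd3, and 0% of those of mt-Atp8. The part of such reads in the shares was not tested.

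**Figure D4:**
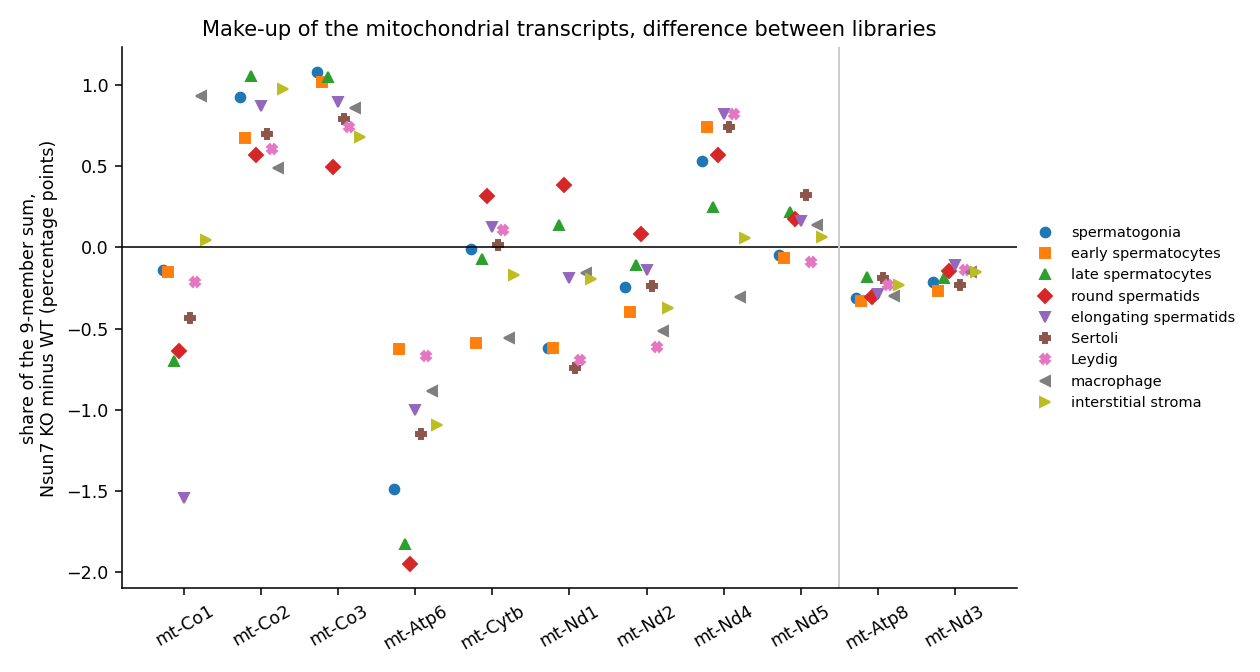
Difference in share of the 9-member sum (Nsun7 KO minus WT, percentage points) for the 9 members and, right of the line, mt-Atp8 and mt-Nd3; each symbol is 1 class. All 9 classes lie above 0 for mt-Co2 and mt-Co3 and below 0 for mt-Atp6, mt-Atp8 and mt-Nd3.

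In late spermatocytes and round spermatids, the 2 libraries held close to the same summed level. Late spermatocytes were 1.07-fold higher in KO (interval 1.06 to 1.07), and none of the 9 members was 1.5-fold apart. Of the 3743 genes averaging 50 CPM and above, 2.56% were 1.5-fold higher and 0.134% were 1.5-fold lower in KO. Round spermatids stood at 0.993 of WT (interval 0.987 to 0.999), with none of the 9 members 1.5-fold apart, beside 0.703% of 3840 genes higher and 0.234% lower. With 5 CPM added to each level, the members' log2 ratios ran between -0.17 (mt-Atp6) and 0.15 (mt-Nd5) with a median of 0.04, beside a median of -0.02 over all genes. In the median barcode of late spermatocytes, by contrast, KO was lower, by a log2 ratio of -0.36. KO barcodes of that class were shallower, with a median of 2931 counts in KO and 8985 counts in WT, and cluster 5 held 78.9% of them in KO and 64.3% in WT. With the libraries clustered separately, the log2 ratio in round spermatids was -0.81 and 8 of 9 members were 1.5-fold apart. It was above 0, at 0.08 to 0.12, under trimmed mean scaling, with the same cluster mix and with classes drawn from low mitochondrial barcodes. Inside the class, cluster 3 held 10507 CPM in KO and 10276 CPM in WT, and cluster 6 held 5495 CPM in KO and 4093 CPM in WT.

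Spermatogonia and Sertoli cells held more of the 9 transcripts in the KO library. In spermatogonia the sum was 1.40-fold higher in KO (interval 1.39 to 1.40). 3 of 9 members passed 1.5-fold higher: mt-Co2 (19315 CPM in KO and 12862 CPM in WT), mt-Co3 (21004 CPM in KO and 13911 CPM in WT) and mt-Nd4 (9581 CPM in KO and 6305 CPM in WT). Over 4200 genes, 0.738% were 1.5-fold higher and 0.881% lower. The excess lay in cluster 7, with 15.7% in KO and 10.4% in WT, while the smaller cluster 16 held 11.5% in KO and 10.9% in WT. Barcodes with over 20% mitochondrial counts were 30.6% of KO spermatogonia and 11.1% of WT spermatogonia. Without them the sum was 115540 CPM in KO and 93745 CPM in WT, and none of the 9 members was 1.5-fold apart. Since this filter cuts on the measured level itself, it cannot decide how large the difference is. Over 8 alternatives KO stayed higher in sum, with 0 to 3 members past 1.5-fold.

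In Sertoli cells the sum was 1.52-fold higher in KO (interval 1.516 to 1.521). mt-Co2, mt-Co3, mt-Cytb, mt-Nd4 and mt-Nd5, 5 of 9 members, were 1.5-fold higher, with mt-Nd5 at 7215 CPM in KO and 4031 CPM in WT, beside 5.76% of 3504 genes higher and 24.7% lower. Trimmed mean scaling, which centres the bulk of genes, gave a shift of -0.43 (log2) in this class and raised the ratio of the sum to a log2 value of 1.03, with 9 of 9 members 1.5-fold apart, as with nuclear counts as the denominator. With the libraries clustered separately the log2 ratio was 0.29 and none of the 9 was 1.5-fold apart. When barcodes with over 20% mitochondrial counts were left out, the levels were 124993 CPM in KO and 140169 CPM in WT. Those barcodes were 85.6% of KO Sertoli cells and 60.4% of WT Sertoli cells. They held 91.7% of the class's member counts in KO and 71.8% in WT. The filter cuts on the measured level itself, so it cannot decide the direction in the whole class. The difference was also uneven inside the class: cluster 13, of deeper barcodes, held 26.4% in KO and 23.0% in WT, and cluster 14 held 35.4% in KO and 20.7% in WT. Cluster 14, whose barcodes had a median of 1745 counts, made up 96.8% of KO and 71.7% of WT Sertoli barcodes. Among barcodes with 20000 counts or more (34 in KO, 115 in WT) the levels were 188525 CPM in KO and 188467 CPM in WT. The Sertoli class also carried more elongating spermatid markers in KO, 41807 CPM against 21268 CPM in WT over 13 markers, with none at 0. The part of depth, cell quality and free RNA in the Sertoli difference was not tested.

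**Figure D5:**
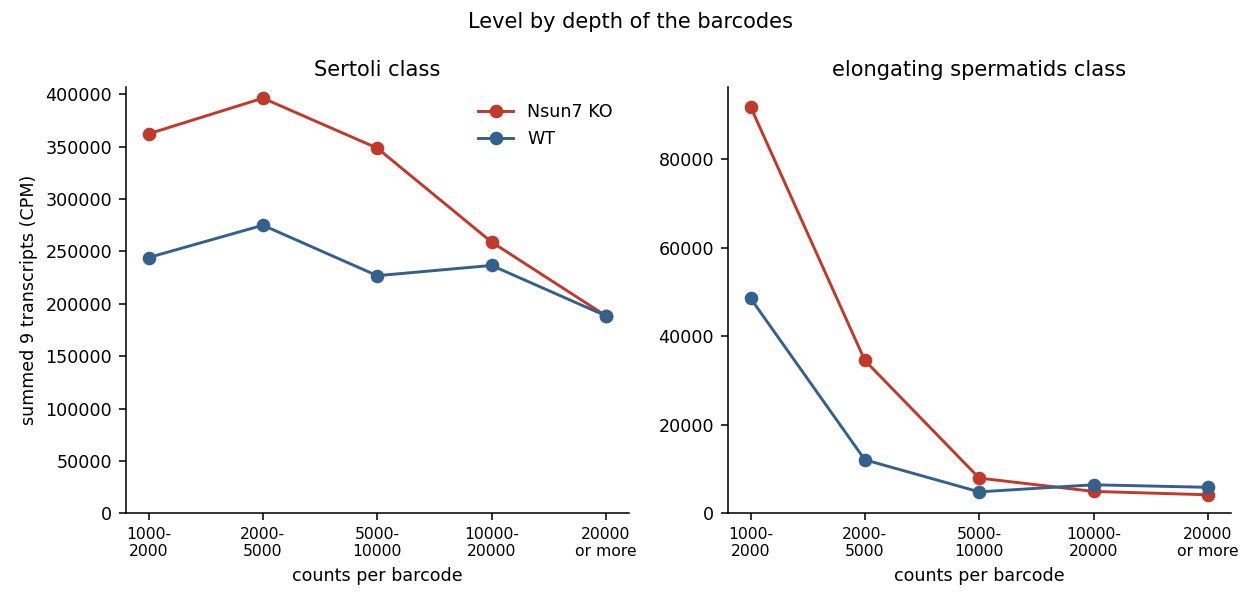
Summed level of the 9 transcripts (CPM, axes from 0) by counts per barcode in the Sertoli class (left panel) and elongating spermatids (right panel), Nsun7 KO and WT. In Sertoli cells the libraries meet at 20000 counts or more, and in elongating spermatids the pooled KO level is higher below 10000 counts and lower from 10000 counts on. The median elongating barcode (not drawn) was lower in KO at 1000 to 2000 counts (0.585% in KO, 0.652% in WT) and 5000 to 10000 counts (0.158% in KO, 0.193% in WT). At 2000 to 5000 counts it was higher in KO (0.263% in KO, 0.249% in WT).

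In elongating spermatids the direction depended on the processing: KO was lower in 9 of 11 alternatives and higher in 2. Pooled, KO stood at 0.875 of WT (interval 0.872 to 0.879), a log2 ratio of -0.19, and none of the 9 members was 1.5-fold apart, beside 0% of 1884 genes 1.5-fold higher and 1.49% lower. Trimmed mean scaling gave a shift of -0.33 (log2) in this class and turned the ratio to 0.14. Different clusters held most of the class: clusters 1 and 22 made up 29.5% and 26.4% of it in KO but 1.57% and 1.99% in WT, whereas cluster 2 made up 0.760% in KO and 21.7% in WT. Among clusters that both libraries filled, cluster 8 held 2013 CPM in KO and 2405 CPM in WT. Cluster 10 held 5059 CPM in KO and 4910 CPM in WT.

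Most mitochondrial counts of the elongating class lay in a minority of its barcodes. Clusters 0 and 11 were 8.15% of the class's barcodes in KO and 25.7% in WT, and held 55.0% of its member counts in KO and 60.8% in WT. Cluster 0 stood at 53963 CPM in KO and 9511 CPM in WT, and cluster 11 at 44856 CPM in KO and 18893 CPM in WT. In KO these clusters were rich in called doublets, 53.7% of barcodes against 1.45% in WT, and their Sertoli markers summed to 1593 CPM (cluster 0) and 2139 CPM (cluster 11) in KO, against 540 CPM (cluster 0) and 1284 CPM (cluster 11) in WT, with none at 0. Without them, elongating spermatids held 2622 CPM in KO and 3762 CPM in WT, a log2 ratio of -0.52, with 2 of 9 members 1.5-fold apart. Leaving out called doublets gave -0.79 with 8 of 9 apart. Giving every cluster the same weight in both libraries turned the ratio to 1.34, with 9 of 9 apart. That setting kept clusters 0 and 11, called doublets included, and gave them more weight than their 8.15% of KO barcodes.

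Within elongating spermatids, clusters were split by Tnp1 at 10000 CPM. Tnp1, whose protein replaces histones midway through elongation, marks the earlier of these stages by transcript. Tnp1-high barcodes held 4935 CPM in KO and 6826 CPM in WT, and without cluster 0 they held 2663 CPM in KO and 4676 CPM in WT. Tnp1-low barcodes (clusters 8, 10 and 11) held 8294 CPM in KO and 5136 CPM in WT. That higher KO level rested on cluster 11, in which 43.6% of KO barcodes and 2.24% of WT barcodes were called doublets: without it the Tnp1-low level was 2382 CPM in KO and 2577 CPM in WT. In the median barcode the KO value was lower in both stages, at 0.135% in KO and 0.342% in WT for Tnp1-high, and 0.174% in KO and 0.192% in WT for Tnp1-low. The difference between the stages was not tested.

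The other classes differed less or rested on few barcodes. Leydig cells, in 398 KO and 381 WT barcodes of a single cluster, were 1.11-fold higher in KO (interval 1.105 to 1.113), the same direction in all 10 alternatives. None of the 9 members was 1.5-fold apart, beside 0.502% of 2990 genes higher and 2.54% lower. Early spermatocytes were 1.04-fold higher in KO, interstitial stroma 1.07-fold and macrophages 1.335-fold, with none of the 9 members 1.5-fold apart in any of the 3 classes. In macrophages 4 or 5 members passed 1.5-fold under 3 of 9 alternatives. The background there was 4.10% higher and 2.50% lower of 4198 genes in early spermatocytes, 9.52% and 8.11% of 3624 in interstitial stroma, and 9.26% and 21.2% of 3303 in macrophages. Endothelial cells, with 7 KO and 51 WT barcodes, were not compared.

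Nuclear encoded partners of the same complexes fell far less along the germ line. The 79 listed nuclear subunits of complexes I, III and IV and of ATP synthase summed to 20011 CPM in KO and 21417 CPM in WT spermatogonia. In round spermatids they summed to 12741 CPM in KO and 13684 CPM in WT, and in elongating spermatids to 3397 CPM in KO and 3945 CPM in WT. The mitochondrially encoded sum was 7.34 times the nuclear sum in KO and 4.91 times in WT spermatogonia. In round spermatids it was 0.674 of the nuclear sum in KO and 0.632 in WT, and in elongating spermatids 1.61 times in KO and 1.59 times in WT. Between spermatogonia and round spermatids the 9 members fell 17.1-fold in KO and 12.2-fold in WT, and the 4 nuclear subunit lists 1.19-fold to 2.45-fold in KO and 1.19-fold to 2.43-fold in WT. Between round and elongating spermatids the 9 members fell 1.57-fold in KO and 1.38-fold in WT, and the nuclear lists 2.31-fold to 6.22-fold in KO and 2.26-fold to 5.31-fold in WT. These elongating values include clusters 0 and 11. Without them the members fell further, from 8587 CPM to 2622 CPM in KO and from 8648 CPM to 3762 CPM in WT. The nuclear lists were not summed without these clusters, so the contrast at this step cannot be judged apart from them.

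In round spermatids none of 93 genes at 10 CPM or more on 6 nuclear lists was 1.5-fold apart once 5 CPM were added to both levels, beside 0.597% of 8376 genes higher and 0.597% lower in KO. List medians ran between -0.20 and -0.08 on the log2 scale, beside -0.05 over all genes. Of the complex I genes, Ndufa12 (386.5 CPM in KO, 409 CPM in WT) and Ndufa7 (321 CPM in KO, 324 CPM in WT) were most abundant. Ndufa5 had the highest ratio (247 CPM in KO, 231 CPM in WT) and Ndufc2 the lowest (21.7 CPM in KO, 30.9 CPM in WT). For complex III, Uqcrq had 520 CPM in KO and 540 CPM in WT, Uqcrfs1, the Rieske iron-sulfur protein, had 247 CPM in KO and 267 CPM in WT, and Uqcrc2 had 59.0 CPM in KO and 72.3 CPM in WT.

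Cox8c, the form of this complex IV subunit made in testis, had 859 CPM in KO and 976 CPM in WT, and Cox8a, the common form, 13.1 CPM in KO and 12.02 CPM in WT. Cox7a2 had 755 CPM in KO and 756 CPM in WT, and Cox6c had 318 CPM in KO and 384 CPM in WT. Of the ATP synthase genes, Atp5j had 383 CPM in KO and 433 CPM in WT, and Atp5b, the catalytic beta subunit, had 382 CPM in KO and 392.3 CPM in WT. Atp5g1 had the highest ratio of that list (89.1 CPM in KO, 74.6 CPM in WT) and Atp5a1 the lowest (89.8 CPM in KO, 113 CPM in WT).

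Tfam, which packages mitochondrial DNA and starts its transcription, had the highest ratio of the transcription and RNA processing list, with 139 CPM in KO and 94.3 CPM in WT round spermatids. The higher KO level was not particular to this class. Tfam was higher in KO in every compared class other than Leydig cells, where its level is not given here. It had 87.7 CPM in KO and 42.6 CPM in WT late spermatocytes, and 625 CPM in KO and 356 CPM in WT macrophages. In round spermatids Slirp, whose protein binds mitochondrial messages, had 237 CPM in KO and 283 CPM in WT. Grsf1, which codes for a protein of mitochondrial RNA granules, had 24.8 CPM in KO and 34.2 CPM in WT. Among translation factors, Mrrf, for ribosome recycling, had 57.9 CPM in KO and 59.3 CPM in WT. Gfm1, for elongation, had 16.9 CPM in KO and 19.9 CPM in WT. Mtif3, for initiation, had the lowest ratio, with 7.29 CPM in KO and 12.8 CPM in WT.

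In elongating spermatids 11 of 61 such genes were 1.5-fold lower in KO by the same measure and none was higher, beside 7.49% of 4671 genes lower and 0.0214% higher. These counts were not adjusted for the trimmed mean shift of -0.33 (log2) in this class. Different clusters also made up most of the class in KO and in WT, and the part of either was not tested. Cox6c (14.9 CPM in KO, 38.6 CPM in WT), Ndufa6 (12.1 CPM in KO, 27.2 CPM in WT), Atp5b (33.6 CPM in KO, 55.4 CPM in WT), Slirp (18.7 CPM in KO, 29.5 CPM in WT) and Uqcrfs1 (20.8 CPM in KO, 31.4 CPM in WT) had the lowest ratios of their lists. Ndufa13 (332 CPM in KO, 318 CPM in WT), Uqcrq (232 CPM in KO, 224 CPM in WT), Cox7a2 (349 CPM in KO, 353 CPM in WT), Atp5e (215 CPM in KO, 203 CPM in WT), Fastk (27.7 CPM in KO, 24.5 CPM in WT) and Mrrf (43.6 CPM in KO, 47.2 CPM in WT) had the highest. Ndufb8, Atp5h, Uqcrc1 and Cox4i1, also abundant, ran between 73.0 CPM and 178 CPM in KO and between 87.3 CPM and 189 CPM in WT. Tfam reached 1499 CPM in KO and 1387 CPM in WT, above its level in round spermatids, whereas the sum of the mitochondrial messages was lower there. Counts per gene do not tell forms of the Tfam message apart, and a link to the mitochondrial messages was not tested. Nsun4, a mitochondrial RNA methyltransferase gene of the NSUN group, had 218 CPM in KO and 231 CPM in WT.

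Among 3852 nuclear genes, the 5 whose levels over the 9 classes were most like the summed members were 1500011B03Rik, Itpa, Zwint, Mrps17 and Ssu72. Their correlations of log2 levels lay between 0.953 and 0.976 in KO and between 0.954 and 0.982 in WT, a description over 9 classes that share 2 libraries. Mrps17, a protein of the mitochondrial ribosome, had 169 CPM in KO and 192 CPM in WT Sertoli cells, and 4.26 CPM in KO and 7.44 CPM in WT elongating spermatids. Itpa, an enzyme that clears inosine nucleotides, had 188 CPM in KO and 196 CPM in WT spermatogonia, and 2.98 CPM in KO and 3.86 CPM in WT round spermatids.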

How the data were processed

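Per the submitters' processing notes the build was GRCm38, and per the file headers the matrices were written by PISA 0.12. The authors deposited whole-number counts per gene and barcode. Not given in the sources used here were the aligner, the use of strand, any choice of barcodes, and whether molecules or reads were counted. Both libraries start at 1001 counts per barcode.

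Barcodes with 200 genes or more were kept, with no mitochondrial filter. Counts were scaled to 10000 per barcode and log transformed. From each library the 3000 most variable nuclear genes other than Nsun7 entered an analysis with 40 components and joint clustering (20 neighbours, Leiden resolution 1, scanpy 1.11.5, igraph 0.11.9), with no batch correction. Doublets were called with Scrublet per library and kept. Each cluster was named for the marker list that scored highest on average, if 3 or more of its genes were detected. It stayed unnamed with over 50% doublets, with leading genes of another class, with low counts and no own marker among its 10 leading genes, or, by a rule set after the clusters had been seen, with a round spermatid score and Tnp1 at 10000 CPM or more.

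CPM are summed counts of a class per 1000000 of its counts. Intervals are exact (Poisson, conditional binomial, Clopper-Pearson). Shares of all genes past 1.5-fold use genes averaging 50 CPM and above (10 CPM for the lists) and add 5 CPM to both levels. The calculation was tested on simulated Poisson counts drawn from pooled class profiles. These hold no variation between cells or libraries, so they check the arithmetic only. Per-length values use annotated gene length, although reads from message ends need not scale with it. Named genes were all 9 members and, from each nuclear list, those with the highest and lowest ratio and the 2 most abundant in round and elongating spermatids. Tfam is also given in other classes. The 5 genes most like the summed members were ranked by the lower of both libraries' Pearson correlations of log2(CPM + 5) over classes, among genes averaging 50 CPM and above. Nuclear copies were found by exact 50-base matches to GENCODE M21 transcripts. The members, markers and lists were chosen with earlier results of these data known.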

Additional observations from a re-analysis of the deposited data

Results flagged for a closer look

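The ratio of the summed 9 transcripts between the libraries did not have the same sign in all classes. The log2 ratio of Nsun7 KO over WT was 0.603 in Sertoli cells, the highest of 9 classes. It was -0.192 in elongating spermatids, where alternatives ran from -0.792 to 1.342, with 9 of 11 below 0 and 2 above. In round spermatids it was -0.010, close to the same level, with an interval below 0 that takes in counting error only. These differences between classes were not tested, since each genotype is 1 library. The Sertoli ratio was -0.165 without barcodes over 20% mitochondrial counts, a filter that cuts on the measured level itself. The ratios of round and elongating spermatids turned positive under trimmed mean scaling.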

How the results depend on the processing

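No paired analysis was possible because each genotype has 1 library, so there is 1 sample on each side and fewer than 2 pairs. For late spermatocytes, with a log2 ratio of KO over WT of 0.092, the values outside the counting interval were 0.064 with at most 20% mitochondrial counts, 0.068 without called doublets, 0.041 at resolution 2, 0.164 with each library clustered alone, 0.115 with the same cluster mix, 0.119 at 3000 counts or more, 0.122 with trimmed mean scaling and -0.362 for the median barcode. For round spermatids (-0.010) they were, in the same order, -0.090, -0.073, -0.097, -0.807, 0.115, -0.047, 0.079 and -0.129, with 0.106 when classes came from barcodes of at most 20% mitochondrial counts. For elongating spermatids (-0.192) they were -0.381, -0.792, -0.333, -0.645, 1.342, -0.300, 0.141 and -0.668, with -0.532 for classes from low mitochondrial barcodes and -0.521 without clusters 0 and 11. For Leydig cells (0.150) they were 0.168 over nuclear counts, 0.121 clustered alone, 0.162 at 3000 counts or more, 0.255 with trimmed mean scaling and 0.187 for the median barcode. The number of members 1.5-fold apart stayed at 0 in late spermatocytes in 10 alternatives. It reached 8 in round spermatids clustered alone. In elongating spermatids it was 8 without doublets, 4 clustered alone, 2 for classes from low mitochondrial barcodes, 9 with the same cluster mix and 2 without clusters 0 and 11. Counting all genes from 10 CPM on, the share past 1.5-fold was 3.35% in late spermatocytes, 1.19% in round and 7.51% in elongating spermatids. The Sertoli ratio (0.603) was -0.165 with at most 20% mitochondrial counts, a filter that cuts on the measured level itself. Clustered alone, mt-Co2 had a higher KO share in 5 of 7 classes, and KO spermatogonia and early spermatocytes formed no class of their own and gave no value. The median barcode, the removal of clusters 0 and 11, together or singly, the checks of shares and those of the other classes were chosen after seeing the data. In 9 of 10 alternatives for round spermatids and 10 of 11 for elongating spermatids the ratio lay outside the counting interval. The cause of the shifts was not tested.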

Other observations

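mt-Nd6, the one message of the light strand, was a minor transcript in all 9 classes, at 0.0348% to 0.111% of the 9-member sum in KO and 0.0406% to 0.113% in WT. Its share was 0.0795% in KO and 0.0837% in WT round spermatids, and 0.0348% in KO and 0.0406% in WT spermatogonia. mt-Nd6 overlaps the end of mt-Nd5 on the other strand, and strand use in counting is not given in the sources used here. mt-Nd4l, counted apart from mt-Nd4 on the same message, was listed at 0.00333% of the sum in KO and 0.00304% in WT spermatogonia.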
